A study of Mus musculus with 8 samples.

Results

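Chromatin is marked by enzymes that add methyl or acetyl groups to lysines of the histone tails and by enzymes that remove them. Expression of 60 genes for these enzymes, and for core subunits that they need, was examined in the cerebral cortex of mice that express cytoplasmic human TDP-43. The genes were taken by symbol from the 10601 genes that passed the read threshold of the study. Included were the Kdm, Setd, Mll, Ehmt, Suv, Ezh, Hdac, Sirt, Kat and Myst genes numbered within their families, together with Dot1l, Crebbp, Ep300, Eed, Suz12 and Whsc1, and 2 further matches were left out by the rule. Family members that are absent from that table, such as Ezh2, Hdac1, Mll4 and Suv39h2, were not analysed here. All 60 genes entered the test, which covered 10588 genes, and 56 of them exceeded 10 RPM (reads per M reads) in every mouse.

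Bigenic mice (n = 4) carried a Camk2a-tTa transgene and a deltaNLS-hTDP-43 transgene on the C57BL/6 strain. The Camk2a promoter is active in excitatory neurons of the forebrain, so the transactivator and the transgene are made in part of the cells of the cortex only. Doxycycline represses the transgene, and it was fed to both groups until it was withdrawn from the diet in young mice. The right cortex was taken days later, at the onset of neurodegeneration. Nontransgenic mice (n = 4) carried neither transgene and followed the same diet. Values are poly(A)-selected RNA reads per gene that the authors scaled for each mouse and are called normalized counts below. Mice are numbered 1 to 4 within each group in the order of the table, which is not tied to the replicate numbers of the samples. In whole tissue, fewer cells of a type and less RNA per cell cannot be told apart.

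Methylation of histone H3 at lysine 4 (H3K4) marks active promoters and enhancers, whereas methylation at H3K9 and H3K27 marks silent chromatin. Acetyltransferases open chromatin and deacetylases compact it again. In neurons several of these genes are best known from inherited intellectual disability, since the loss of a single copy of some of them in humans disturbs brain development. TDP-43 itself binds RNA at runs of alternating U and G.

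Runs of alternating T and G of 12 bases or more were therefore looked for in the longest coding transcript of each gene in GENCODE M1 (genome build mm9). Only 3 of 59 enzyme genes with such a transcript held a run (5.08%), against 742 of the 10123 tested genes that had one (7.33%). Among transcripts of 5 kb or more, 7.69% of the 26 enzyme transcripts and 15.0% of all 2354 held a run. All 3 runs lie in 3′ UTRs on the minus strand, and they are shown because no other run in these transcripts reached 12 bases. Shorter runs were of 11 bases in Hdac7 and Setd7 and of 10 in Ep300. Introns and Hdac4 were not searched. Each window is written 5′ to 3′ as DNA, with the alternating run in capitals.
Ehmt1, chr2:24646440-24646469: ctttTGTGTGTGTGTGTGTGTGTGTGagtg
Hdac9, chr12:34733529-34733558: ggatTGTGTGTGTGTGTGTGTGTGTatgta
Kdm4a, chr4:117810337-117810366: caccTGTGTGTGTGTGTGTGTGTGTGcttg
The run is 22 bases long in Ehmt1, 21 in Hdac9 and 22 in Kdm4a. A match of letters is not a binding site, and no binding data were used. Of these 3 genes Ehmt1 was higher in the bigenic mice, whereas Hdac9 (log2 fold change -0.01) and Kdm4a (0.18, adjusted p = 0.0690) did not pass the test.

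Reads on genes numbered about 10.6 M to 31.9 M per bigenic library and 20.5 M to 29.0 M per nontransgenic library. The shallowest library, bigenic mouse 2, stood apart. It was the highest of the 4 bigenic mice for 41 of the 60 enzyme genes (68.3%), against 43.1% of all genes tested. Xist, the RNA of the inactive X chromosome, was high in bigenic mouse 1 (26813) and in nontransgenic mice 1 and 2 (24132 and 24718), and was at most 341 in the other 5 mice, in which the Y-linked gene Ddx3y was between 2545 and 4459. The groups thus held 1 and 2 mice of this kind, although the study's methods give both groups the same sex composition. Mouse Tardbp was lower in the bigenic mice (5180 ± 249 against 6538 ± 420, SD, log2 fold change -0.33, adjusted p = 0.00645), and the human transgene was not analysed here. Summed markers of neurons were 0.811-fold of the nontransgenic level (156251 to 200421 against 198213 to 215737, 6 of 11 markers lower and 2 higher). Marker sums were 0.853-fold for astrocytes (124227 to 143709 against 151259 to 163002, 4 of 9 lower), 0.765-fold for microglia (5268 to 6873 against 7057 to 8321, 5 of 9 lower), 0.964-fold for oligodendrocytes (69161 to 91387 against 70381 to 87583, 1 of 11 higher) and 0.913-fold for endothelium (5433 to 6408 against 6426 to 7044, 1 of 8 lower). Markers of choroid plexus, an epithelium of the brain ventricles, were 16.97-fold higher in sum (8207 to 19208 against 336 to 1168). Only 3 of the 7 listed could be tested. All 3 were higher, with log2 fold changes from 2.25 to 4.34 (median 2.40). Only markers that passed the read threshold of the study were summed, and the other listed markers were not examined. The part of these differences in the results below was not tested.

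Enzyme genes were more often higher than lower in the bigenic mice. Past an adjusted p of 0.05, 16 of the 60 were higher and 3 were lower, where 20.5% of all genes tested were higher and 15.4% lower. The 19 genes make up 31.7% of the enzymes, against 35.9% of all genes. The share past the threshold is thus near the background. A log2 fold change above 0 was found for 44 of 60 genes, against 53.3% of all genes. The median was 0.16, beside 0.03 for all genes, and the values ran from -0.54 for Suv39h1 to 0.67 for Myst2. Groups did not overlap for 18 genes in the higher direction (22.3% of all genes) and for 4 in the lower direction (16.7%), and 39% of all genes had no overlap in either direction. A change of at least 1.5-fold as well left 3 higher genes, Myst2, Myst3 and Setd1a (7.07% of all genes), and 0 lower genes (5.34%). At an unadjusted p below 0.05 there were 26 of the 60 genes, beside 4940 of all 10588 genes tested. Without bigenic mouse 2 the counts were 16 higher (26.7% of the enzymes, beside 25.3% of all genes in that fit) and 7 lower (all genes 20.2%), with a median of 0.09. With the Xist level as a covariate, chosen after seeing the data, they were 14 and 3 (all genes 17.1% and 13.1%). With a trend on GC content and length removed from each mouse, 15 of 59 genes were higher and 5 lower (all genes 20.3% and 18.4%), and the median was 0.07.

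**Figure D1:**
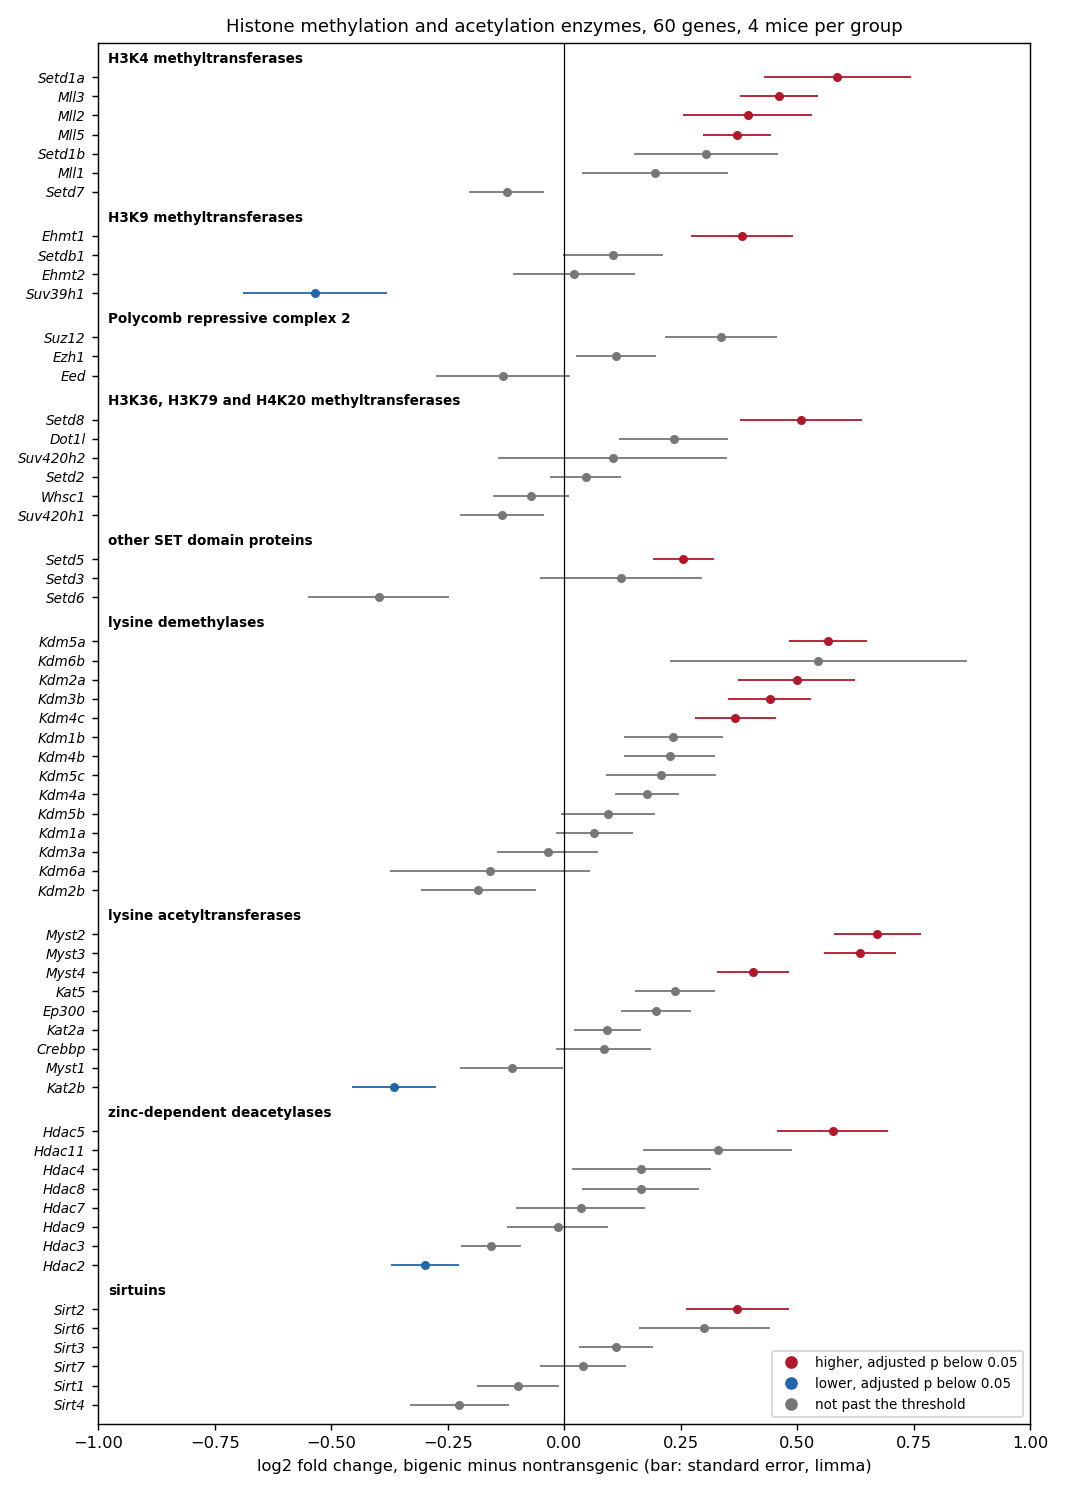
Log2 fold change (bigenic minus nontransgenic, log2(normalized count + 1)) of each of the 60 enzyme genes with its standard error from limma, grouped by role and coloured by call. The 16 higher genes are spread over 8 of the 9 roles, with 4 in the H3K4 methyltransferases and 4 in the demethylases, and the 3 lower genes lie in 3 roles.

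**Figure D2:**
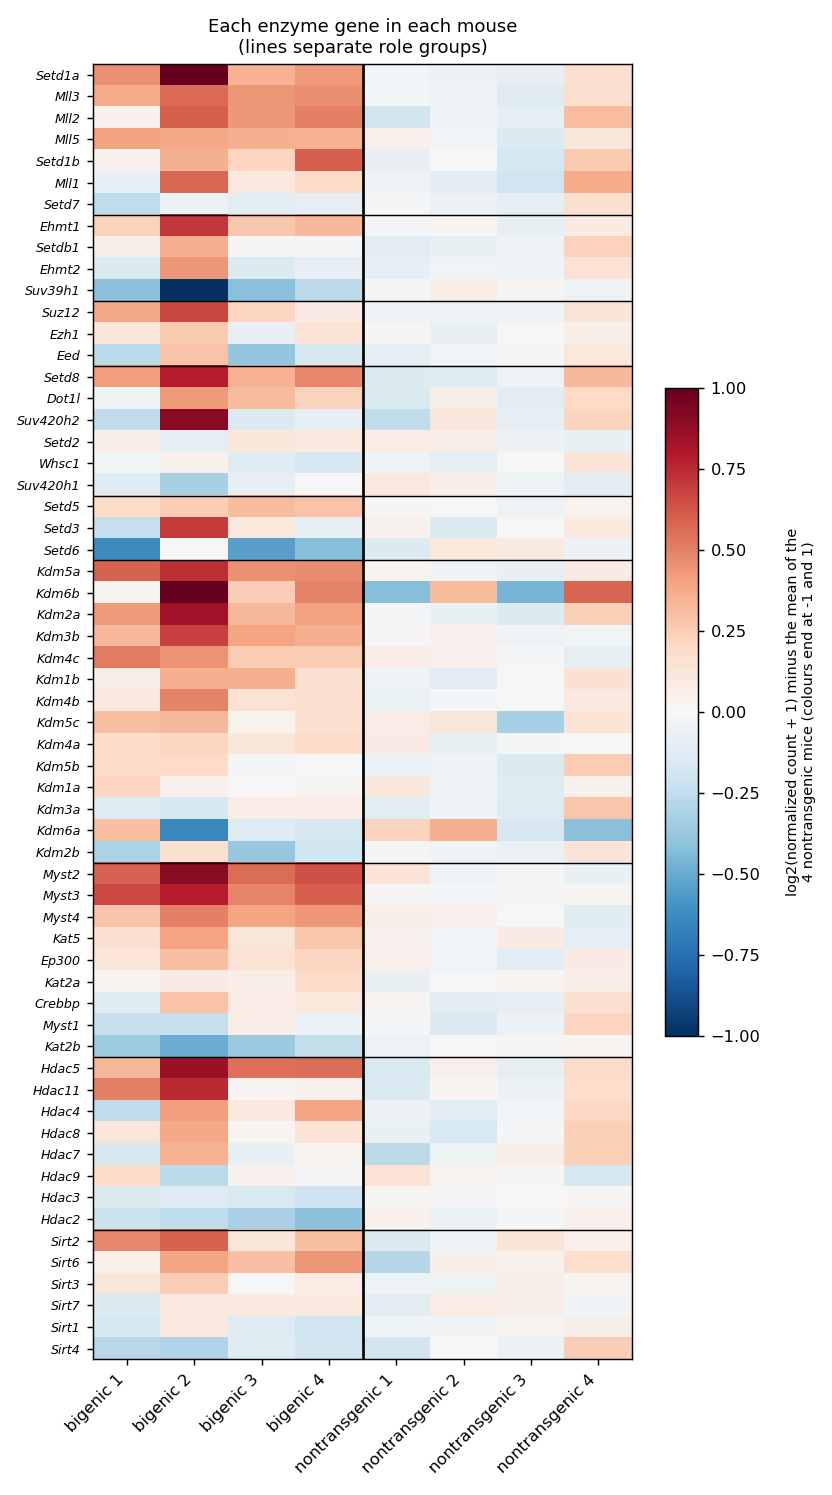
Each enzyme gene in each of the 8 mice, as log2(normalized count + 1) minus the mean of the 4 nontransgenic mice, with colours that end at -1 and 1. Bigenic mouse 2 has the strongest colour in many rows, and Myst2, Myst3, Kdm5a and Mll3 are raised in all 4 bigenic mice.

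H3K4 methyltransferases were the group with the highest median (0.37), and 4 of 7 were higher and 0 lower in the bigenic mice. Of all genes tested, 20.5% were higher and 15.4% lower. Counts of this and the other roles are to be read against these shares, and several roles hold few genes. The median is the value of Mll5, and the call of Mll2 was narrow (both below). Setd1a is the catalytic subunit of a COMPASS complex that methylates promoters. It had 1796, 2833, 1664 and 1751 normalized counts in bigenic mice 1 to 4 and 1280, 1254, 1234 and 1472 in nontransgenic mice 1 to 4. All bigenic values lay above all nontransgenic values, and mouse 2 alone stood far above the rest. The log2 fold change was 0.59 ± 0.16 (SE, adjusted p = 0.0169), and 0.41 without bigenic mouse 2 (adjusted p = 0.00126). Without nontransgenic mouse 3 the adjusted p of Setd1a was 0.0510. Its relative Setd1b was low per length, at 21.2 normalized counts per kb of transcript in nontransgenic mice, and its difference (0.30) did not pass the test. Mll3 (Kmt2c), which acts at enhancers, read 5639, 6471, 5911 and 6033 in bigenic against 4305, 4261, 3998 and 4942 in nontransgenic mice. The rise to 1.37-fold (log2 fold change 0.46 ± 0.08, adjusted p = 0.00250) had no overlap.

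Mll2, placed here on chromosome 15 and known today as Kmt2d, belongs to the same enhancer complex family. Its values were 4002, 5865, 5233 and 5487 with the transgenes and 3423, 3791, 3632 and 4805 without them, so that bigenic mouse 1 fell below nontransgenic mouse 4. Mll2 passed narrowly (0.39 ± 0.14, adjusted p = 0.0496). The call was lost without bigenic mouse 2, 3 or 4 (adjusted p 0.0611, 0.0897 and 0.108) and without nontransgenic mouse 1, 2 or 3 (0.133, 0.112 and 0.124), with the Xist level as a covariate (0.31, adjusted p = 0.05997) and with the GC and length trend removed (0.13, adjusted p = 0.287). Mll5 (Kmt2e), which reads methylated H3K4 rather than being a known strong methyltransferase, was steady among the bigenic mice at 5593, 5526, 5410 and 5380. In the nontransgenic mice Mll5 read 4397, 4159, 3848 and 4580. The difference was 0.37 ± 0.07 (adjusted p = 0.00388), although 880 exonic bases of Mll5 overlap Srpk2 on the other strand and counting is not stated to use strand. Mll1 (Kmt2a) spread from 5120 to 8049 in the bigenic and from 4717 to 6993 in the nontransgenic mice (0.19), and Setd7, which also methylates many proteins other than histones, had the highest nontransgenic level per length of all 59 genes with a length (850 normalized counts per kb) and a difference of -0.12.

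H3K9 methyltransferases moved in both directions. Ehmt1 (GLP), which together with Ehmt2 (G9a) places mono- and dimethylation on H3K9, read 1056, 1466, 1080 and 1122 in the bigenic and 887, 908, 850 and 950 in the nontransgenic mice. Ehmt1 was higher in every bigenic mouse than in any nontransgenic mouse (0.38 ± 0.11, adjusted p = 0.0215). Its adjusted p was 0.0573, 0.0535 and 0.0662 without nontransgenic mouse 1, 2 or 3, and 0.00584 without bigenic mouse 2. Ehmt2 showed 2779, 4171, 2788 and 2892 in the bigenic and 2890, 3015, 2995 and 3384 in the nontransgenic mice. Only bigenic mouse 2 was high, and the difference of 0.02 became -0.12 without that mouse (adjusted p = 0.157). Suv39h1 trimethylates H3K9 in the heterochromatin around centromeres and lies on the X chromosome (chrX:7638297-7651886, minus strand). Values of Suv39h1 were 419, 269, 416 and 463 in the bigenic and 548, 583, 561 and 536 in the nontransgenic mice, with no overlap. It was the lowest log2 fold change of the 60 genes (-0.54 ± 0.15, adjusted p = 0.0221), at 0.703-fold. Without bigenic mouse 2, the lowest of the mice, the log2 fold change was -0.36 (adjusted p = 0.00250). The call was lost without nontransgenic mouse 1, 2 or 3 (adjusted p 0.0529, 0.0628 and 0.0568). Exons of Suv39h1 share 596 bases with Gm14820 on the other strand. Setdb1 (0.10) did not pass the test.

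Core subunits of Polycomb repressive complex 2, which methylates H3K27, gave 0 calls in 3 genes in limma, and 1 at an unadjusted p below 0.05. Ezh1, the catalytic subunit of mature neurons, read 1151, 1282, 1009 and 1181 in the bigenic and 1078, 1012, 1070 and 1108 in the nontransgenic mice (0.11). The groups overlapped. Suz12 lay just outside the threshold (0.34 ± 0.12, adjusted p = 0.0523), and passed it without bigenic mouse 2 (0.23, adjusted p = 0.0436) or bigenic mouse 4 (0.42, adjusted p = 0.0257). Eed, which binds the methylated product, had a difference of -0.13, and of -0.27 without bigenic mouse 2 (adjusted p = 0.0348).

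Among the 6 enzymes for H3K36, H3K79 and H4K20, 1 was higher and 0 lower. This was Setd8 (Kmt5a), which monomethylates H4K20 and is best known from dividing cells. Setd8 had 757, 982, 726 and 795 normalized counts in the bigenic and 517, 519, 548 and 712 in the nontransgenic mice. The lowest bigenic mouse was only slightly above the highest nontransgenic mouse, and the log2 fold change was 0.51 ± 0.13 (adjusted p = 0.0139). Windows of 50 bases that occur once in the genome make up 89.3% of its exonic windows. Reads from the other windows may not have been placed, and their number is not known here. The H3K79 methyltransferase Dot1l (0.23) passed the threshold without bigenic mouse 1 (0.33, adjusted p = 0.0426) and with array weights (0.29, adjusted p = 0.00345). Setd2 (0.05) and Whsc1 (-0.07), which methylate H3K36, and Suv420h1 (-0.13) and Suv420h2 (0.10), which act on H4K20, stayed on the same side of the threshold whichever mouse was left out.

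Of the 3 remaining SET domain proteins 1 was higher. Setd5, a chromatin regulator whose own enzyme activity is debated, read 3179, 3321, 3491 and 3418 in the bigenic and 2834, 2810, 2702 and 2882 in the nontransgenic mice. It was a small, even rise (0.26 ± 0.07, adjusted p = 0.0138) without overlap, and the adjusted p was 0.0527 without nontransgenic mouse 3. Setd6, which methylates a subunit of NF-kappaB, had a difference of -0.40 (adjusted p = 0.0645), and without bigenic mouse 2 it was lower (-0.53, adjusted p = 0.00263). Setd3 acts on actin and not mainly on histones, and showed 792, 1503, 997 and 874 in the bigenic against 845 to 991 in the nontransgenic mice (0.12).

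Lysine demethylases were higher in 4 of 14 genes (28.6%, beside 20.5% of all genes) and lower in 0 (beside 15.4%), with a median of 0.22. Kdm5a (chr6:120314117-120394592, plus strand) removes methyl groups from H3K4, the mark set by the Mll and Setd1 enzymes. Kdm5a read 3637, 4029, 3300 and 3350 in the bigenic and 2455, 2346, 2293 and 2554 in the nontransgenic mice. Even the lowest bigenic mouse was well above the nontransgenic range, and the rise to 1.48-fold had a log2 fold change of 0.57 ± 0.08 (adjusted p = 0.000847). Kdm5a shares 276 exonic bases with Ccdc77 on the other strand. Kdm2a, which acts on H3K36 at CpG islands, showed 3638, 4835, 3376 and 3579 in the bigenic against 2664, 2560, 2454 and 3181 in the nontransgenic mice (0.50 ± 0.13, adjusted p = 0.0124). Kdm2b, its relative, had a difference of -0.18, with groups that overlapped because of bigenic mouse 2 (325, 451, 310 and 351 against 398, 393, 386 and 441). Without that mouse Kdm2b was lower (-0.30, adjusted p = 0.0154). H3K9 demethylases Kdm3b and Kdm4c were both higher without overlap. Kdm3b read 1751, 2244, 1839 and 1806 against 1410, 1449, 1366 and 1377 (0.44 ± 0.09, adjusted p = 0.00440). Kdm4c was at 1004, 955, 836 and 835 in the bigenic and at 735, 723, 691 and 658 in the nontransgenic mice (0.37 ± 0.09, adjusted p = 0.00959).

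Other demethylases did not pass the test. Kdm4a (1353 to 1441 against 1179 to 1320) and Kdm4b (1290 to 1696 against 1147 to 1285) had groups that did not overlap, with differences of 0.18 and 0.23. Kdm1a (LSD1), which also exists as a neuronal splice form not resolved here, had a difference of 0.06. Kdm6b, an H3K27 demethylase that responds quickly to stimulation, had the largest standard error of the 60 genes, with 432, 1121, 500 and 594 in the bigenic and 313, 524, 305 and 632 in the nontransgenic mice. Its difference of 0.55 ± 0.32 had an adjusted p of 0.207, and was 0.26 without bigenic mouse 2.

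Kdm6a (UTX), the X-linked H3K27 demethylase, is known to escape X inactivation, and its values were ordered by the Xist level, a pattern noticed after the values were seen. It was 1053 in the bigenic mouse with high Xist and 998 and 1092 in the 2 nontransgenic mice with high Xist. In the mice with low Xist it was 544, 782 and 760 in the bigenic and 761 and 638 in the nontransgenic group. The 3 mice with high Xist were thus above the other 5 in both groups. The difference between genotypes of Kdm6a was -0.16 (adjusted p = 0.586), and -0.01 with the Xist level as a covariate (adjusted p = 0.963). Other X-linked enzymes did not separate in this way. Kdm5c, which also escapes, was 1788 to 2089 in the mice with high Xist and 1348 to 2128 in the rest, and Hdac8 was 207 to 250 and 228 to 300. Suv39h1 stayed lower in the bigenic mice with the covariate (-0.51, adjusted p = 0.0447).

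**Figure D3:**
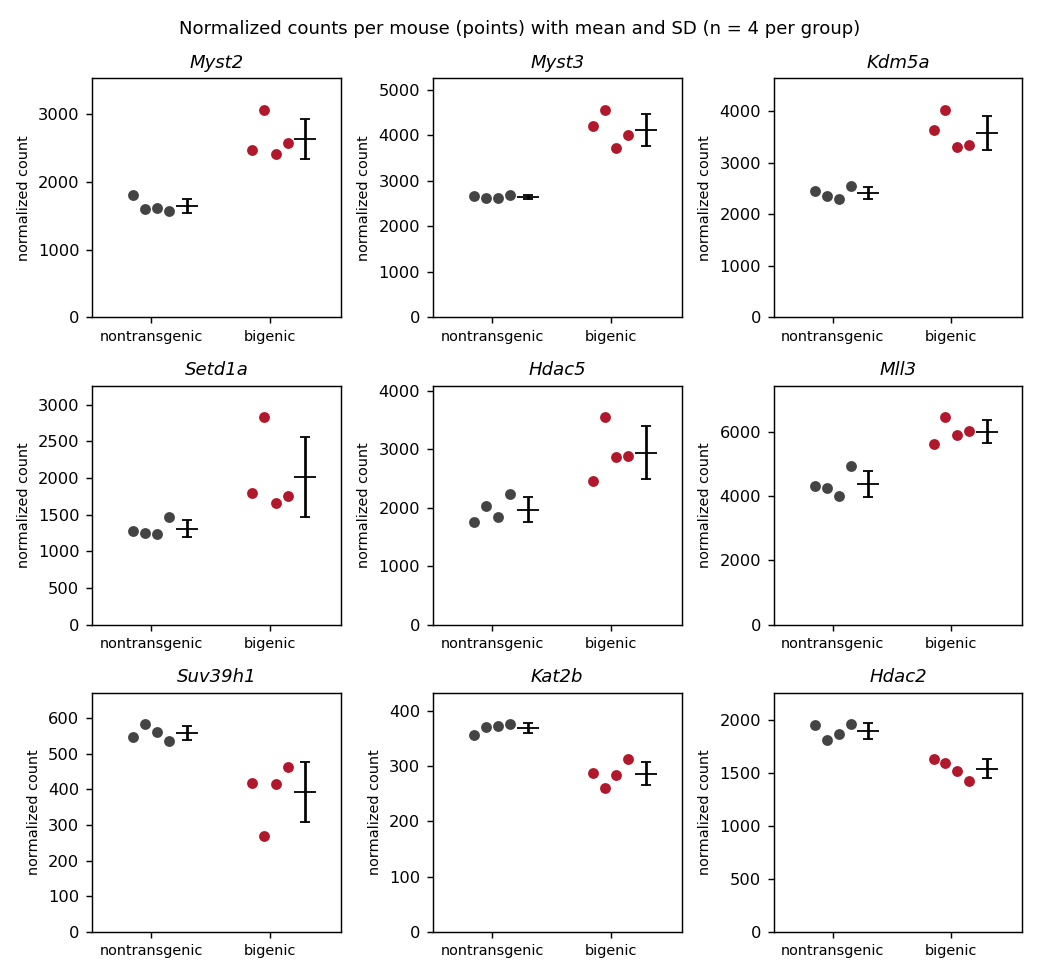
Normalized counts of 9 enzyme genes in each mouse (points), with the mean and SD of each group of 4. Bigenic and nontransgenic points do not overlap in any panel, and in every panel except Hdac2 the shallowest library (the second bigenic point) lies farthest from the nontransgenic mice.

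Lysine acetyltransferases held the 2 genes with the largest rise, both of the MYST family. Myst2 (Kat7, HBO1, chr11:95135573-95171560, minus strand, mm9) acetylates H3K14 and H4 and acts at origins of replication and in transcription. Its counts were 2471, 3067, 2415 and 2572 in the bigenic and 1802, 1597, 1620 and 1565 in the nontransgenic mice. The rise was 1.599-fold without overlap (0.67 ± 0.09, adjusted p = 0.000625). Myst3 (Kat6a, MOZ, chr8:23970007-24053731, plus strand) was nearly constant among the nontransgenic mice at 2674, 2616, 2615 and 2695, and read 4199, 4566, 3715 and 4016 in the bigenic mice. Its log2 fold change of 0.63 ± 0.08 had the smallest adjusted p of the 60 genes (0.000315). Myst4 (Kat6b), its closest relative, was higher as well, at 2245, 2612, 2420 and 2488 against 1931, 1910, 1835 and 1694 (0.41 ± 0.08, adjusted p = 0.00332). Myst1 (Kat8, MOF), which acetylates H4K16, differed by -0.11 with groups that overlapped. Calls of Myst2, Myst3 and Myst4 held whichever mouse was left out.

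Kat2b (PCAF, chr17:53706186-53812045, plus strand) was the only acetyltransferase that was lower. It had 287, 261, 284 and 313 normalized counts in the bigenic and 356, 370, 372 and 376 in the nontransgenic mice, a fall to 0.777-fold (log2 fold change -0.37 ± 0.09, adjusted p = 0.0110). Of the exonic windows of Kat2b, 84.4% occur once in the genome. Kat2a (GCN5), which shares its complexes, differed by 0.09. The general coactivator Ep300 read 2634, 2982, 2673 and 2815 against 2500, 2379, 2255 and 2557, without overlap, but did not pass (0.20, adjusted p = 0.0644). Its partner Crebbp (0.08) had groups that overlapped. Kat5 (TIP60) had groups without overlap and lay just outside the threshold (0.24, adjusted p = 0.0522), which it passed without bigenic mouse 3 (0.28, adjusted p = 0.0482).

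Zinc-dependent deacetylases had 1 higher and 1 lower gene of 8. Hdac5, a class IIa enzyme that shuttles between cytoplasm and nucleus with neuronal activity, read 2456, 3551, 2869 and 2879 in the bigenic and 1756, 2019, 1841 and 2234 in the nontransgenic mice. The groups did not overlap (0.58 ± 0.12, adjusted p = 0.00504), and the log2 fold change was 0.48 without bigenic mouse 2 and 0.38 with the GC and length trend removed (adjusted p = 0.00231). Hdac2 (chr10:36694350-36721695, plus strand), a class I deacetylase abundant in mature neurons, read 1635, 1594, 1519 and 1430 in the bigenic against 1952, 1813, 1870 and 1965 in the nontransgenic mice. It fell to 0.813-fold (-0.30 ± 0.07, adjusted p = 0.0105), a call that was lost with the GC and length trend removed (-0.21, adjusted p = 0.0881). Hdac3, the catalytic subunit of the NCoR complex, had groups without overlap (1273 to 1350 against 1454 to 1488) and a difference of -0.16 (adjusted p = 0.0775). Without bigenic mouse 2 Hdac3 was lower (-0.17, adjusted p = 0.0312). The class IIa genes Hdac4 (0.16), Hdac7 (0.03) and Hdac9 (-0.01), Hdac8 (0.16) and Hdac11 (0.33), whose bigenic values spread from 2148 to 3555, did not pass the test. Without bigenic mouse 2 the difference of Hdac11 was 0.19.

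Sirtuins are deacetylases that use NAD. Sirt2, a mainly cytoplasmic tubulin deacetylase abundant in oligodendrocytes, was the only member of 6 past the threshold (0.37 ± 0.11, adjusted p = 0.0262), and its groups overlapped. It read 1597, 1721, 1242 and 1413 in the bigenic and 1035, 1119, 1253 and 1186 in the nontransgenic mice. Bigenic mouse 3 was below nontransgenic mouse 3. The call was lost without bigenic mouse 1 (adjusted p = 0.0638), without nontransgenic mouse 1 or 2 (0.0810 and 0.0707) and with the Xist level as a covariate (0.0510). The oligodendrocyte marker sum given above was 0.964-fold. Nuclear Sirt6 (0.30), Sirt7 (0.04) and Sirt1 (-0.10) and mitochondrial Sirt3 (0.11) and Sirt4 (-0.23) did not pass.

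Related enzymes were then compared within each mouse, as the log2 ratio of their normalized counts, which does not depend on how a mouse was scaled. Of 17 pairs, 7 had ratios that did not overlap between the groups. Ratios of other gene pairs were not computed, so the share to be found in any pairs is not known here. For single genes, 39% of all genes tested had no overlap. Each of the 7 had the smallest p that 4 against 4 mice allow in an exact two-sided permutation test (0.0286), which was 0.0694 after Benjamini-Hochberg adjustment over the 17 pairs, so 0 pairs passed an adjusted threshold of 0.05. The largest difference was between Myst1 and Myst2. Their log2 ratio was -2.94, -3.25, -2.62 and -2.83 in the bigenic and -2.27, -2.23, -2.17 and -1.84 in the nontransgenic mice, a shift of -0.78 toward Myst2. Kdm2a over Kdm2b was closely spaced within each group, at 3.48, 3.42, 3.44 and 3.35 against 2.74, 2.70, 2.67 and 2.85, a shift of 0.68. In this ratio bigenic mouse 2, which was highest of the bigenic mice for both genes, was no longer apart.

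The ratio of Kdm3a to Kdm3b was shifted by -0.48 and that of Hdac4 to Hdac5 by -0.41. Hdac4 over Hdac5 was -2.40, -2.26, -2.27 and -1.98 in the bigenic and -1.72, -1.98, -1.76 and -1.80 in the nontransgenic mice, so the nearest mice of the groups almost touched. Kat2a over Kat2b was 1.85, 2.04, 1.90 and 1.89 against 1.43, 1.45, 1.46 and 1.497, a shift of 0.46 toward Kat2a. Ehmt1 over Ehmt2, partners in a single complex, was -1.40, -1.51, -1.37 and -1.37 against -1.70, -1.73, -1.82 and -1.83, a shift of 0.36. Kdm5a gained 0.36 on the X-linked Kdm5c, with ratios of 0.80, 0.92, 0.92 and 0.82 against 0.46, 0.35, 0.77 and 0.45. Here too the nearest mice almost touched, and nontransgenic mouse 3, the nearest, was low for Kdm5c (1348). For Myst3 over Myst4 (0.23), Crebbp over Ep300 (-0.11), Mll1 over Mll2 (-0.20) and 7 further pairs the groups overlapped, and the exact p of these pairs was between 0.0571 and 0.857.

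**Figure D4:**
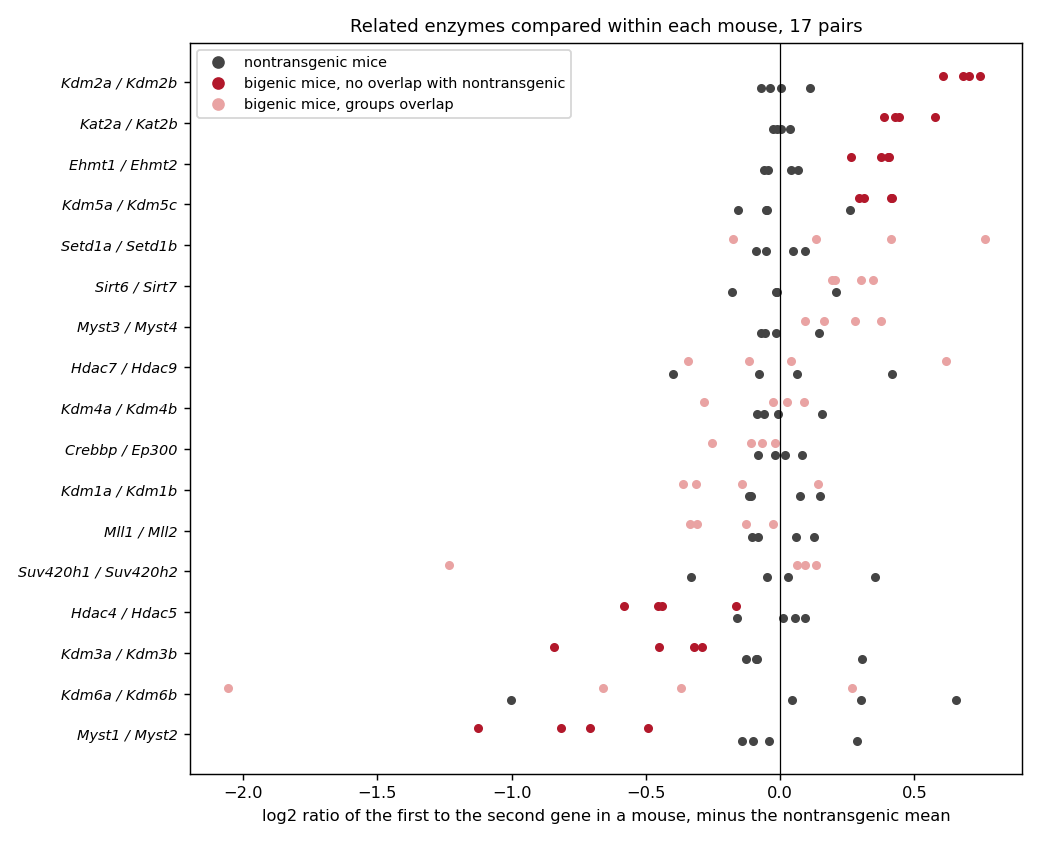
Log2 ratio of the first to the second gene of each of 17 related pairs in each mouse, minus the nontransgenic mean of that ratio. The 7 pairs in dark red do not overlap between the groups, from Kdm2a over Kdm2b at the top to Myst1 over Myst2 at the bottom.

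Enzymes of this kind act in complexes, and 103 of 113 listed partners and further chromatin genes could be tested. Of these, 26 were higher (25.2%, beside 20.5% of all genes tested) and 10 lower (9.71%, beside 15.4%), with a median log2 fold change of 0.13. The counts of the single lists below are to be read against the same shares of all genes, and several lists are short. Deacetylase complex subunits had 11 of 22 higher and 1 lower and a median of 0.30. They included Mta3 (1527 ± 82 against 915 ± 43, SD, log2 fold change 0.74, adjusted p = 0.000102), a subunit of the NuRD complex in which Hdac2 works. Others of this list that were higher included the NuRD subunits Gatad2a (0.52), Gatad2b (0.64) and Mbd3 (0.37), the corepressor Ncor1 (0.40), the LSD1 partners Rcor1 (0.35) and Rcor2 (0.63), and the Sin3 complex members Sin3b (0.27) and Sap130 (0.24), while Mta1 (-0.31) was lower. In the same list 10 genes did not pass, among them Sin3a (-0.04), Suds3 (0.24), Mta2 (0.26), Mbd2 (0.08), Phf21a (0.24) and Zmym2 (-0.13). Fits that left out a mouse are not reported here for partners. Hdac2, a deacetylase of the NuRD, CoREST and Sin3 complexes, was lower. So were the shared subunits Rbbp4 (-0.34) and Rbbp7 (-0.79), which were counted in the Polycomb list below and not in this list.

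Further demethylases were higher in 4 of 5 genes, namely Jmjd1c (0.33), Jhdm1d (0.38), Phf2 (0.45) and Phf8 (0.46). COMPASS and MLL core subunits had 2 of 11 higher and 0 lower, the larger being Men1 (menin, 875 ± 78 against 636 ± 21, log2 fold change 0.46, adjusted p = 0.00261) beside Rbbp5 (0.37). Partners of Polycomb repressive complex 2 had 1 higher (Mtf2, 0.43) and 2 lower of 5, the histone-binding proteins Rbbp4 (-0.34) and Rbbp7 (-0.79), which are also shared with the deacetylase complexes. The list of acetyltransferase partners, in which the Ing genes were placed whatever complex they act in, gave 2 higher and 3 lower of 34. Brpf1 (0.58), the scaffold that binds Myst3 and Myst4, was higher, and Ing1 was lower (510 ± 36 against 840 ± 75, log2 fold change -0.72, adjusted p = 0.000400). Other listed partners of Myst enzymes, Brpf3 (0.18), Brd1 (0.09), Ing5 (-0.06) and Meaf6 (-0.53), did not pass the test. Other methyltransferases had 4 higher and 3 lower of 15, from Smyd5 (0.88) to the neuronal arginine methyltransferase Prmt8 (-0.62). Readers of the marks had 2 higher and 1 lower of 11, led by L3mbtl2 (0.60) and L3mbtl3 (0.64) against Cbx7 (-0.23).

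The enzyme genes are long. Their median exonic length was 6035 bases, against 4179 for the tested genes with an annotation, and their median span was 43.1 kb against 28.3 kb, whereas the GC content was alike (49.3% against 49.6%). Within the set, Mll3 and Mll2, the genes with the most exonic bases (20296 and 19805), were higher, although Mll2 was not called with the GC and length trend removed (0.13, adjusted p = 0.287) or in 6 of the 8 fits that left out a mouse. Also higher were the 12481-base Setd5 and the 14185-base Kdm5a, while the 16670-base Mll1, the 15902-base Whsc1 and the 13768-base Suv420h1 did not pass. The shortest, Setd6, Myst1, Sirt3, Sirt4, Eed and Kat5, with 1570 to 2398 exonic bases, did not pass the limma test, although Setd6 and Kat5 had unadjusted p-values of 0.0255 and 0.0191.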

How the data were processed

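Poly(A) RNA of 8 cortices was sequenced. Per the study's methods, the authors used cutadapt for adaptor trimming, Bowtie 0.12.7 for mapping to mm9 (unique reads only) and bedtools for exon counts, which were summed by gene. The deposited signal for 28662 transcripts is a read count scaled in each mouse and rounded. How the scaling was set is not given in the sources used here. The worth of a single read in each mouse was estimated from whole numbers that the scaling skips or doubles (8 of 8 simulated steps were recovered), and a count of 3 reads equals 1.94 to 6.20 normalized counts. Such floors cover counting error only. A second deposited table of the authors' fold changes and p-values served for symbols only.

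Genes at 10 RPM of the column total or more in at least 1 mouse were tested on log2(normalized count + 1) with limma 3.58.1 (lmFit, eBayes with trend) in R 4.3.3, two-sided, with Benjamini-Hochberg adjustment over 10588 genes and a threshold of 0.05. Fold changes on this scale understate low genes. Tested on simulated data with independent noise, limma called 183 of 200 genes doubled or halved and 13 unchanged genes. These planted changes were larger than that of any enzyme (log2 fold changes -0.54 to 0.67). The share called therefore does not hold for changes of the enzymes' size. Pairs were compared by exact permutation over 70 arrangements (Python 3.11.15, scipy 1.17.1). Alternatives were pseudocounts of 10 and 0.1, other filters, rescaling or quantile normalization, array weights, voom, removal of a trend on GC content and length, leaving out each mouse and, chosen after seeing the data, the Xist level as a covariate. Positions, lengths and GC content came from GENCODE M1. Hdac4, with 2 gene records there, was not placed, and 59 genes were.

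The enzymes, role lists, partners, markers and pairs were chosen with earlier results of these data known. The text names the called genes with the largest rise or fall (up to 12 each), the smallest adjusted p of each role and partner list and both genes of pairs at the smallest exact p; other enzymes appear where their role is described, and further called partners were named after their values were seen (some are not reported here). Columns name a group but no replicate number, and nothing beyond the labels says how the samples of a group relate, so p-values measure the spread between these mice.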

Additional observations from a re-analysis of the deposited data

Results flagged for a closer look

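In 9 of 120 groups of 4 mice (60 enzyme genes in both genotypes), the highest or lowest mouse stood apart from the others by more than Dixon's critical value allows for the gap as a share of the range. Chance gives such a gap in about 1 in 20 groups. Of the 9, 5 were the shallowest bigenic library, always as the highest mouse. They were Ehmt1 (1466, the other bigenic mice 1056 to 1122), Ehmt2 (4171, others 2779 to 2892), Kdm4b (1696, others 1290 to 1349), Setd1a (2833, others 1664 to 1796) and Suv420h2 (333, others 149 to 166).

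Among the nontransgenic mice Kdm5c was low in mouse 3 (1348, others 1788 to 1865), and mouse 4 was high for Setd8 (712, others 517 to 548) and Suz12 (1306, others 1149 to 1163). Sirt7 was low in bigenic mouse 1 (367, others 432 to 433), the bigenic mouse with high Xist. The cause of these gaps was not tested.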

How the results depend on the processing

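No paired analysis was possible because the columns carry no replicate number. The higher count (16) became 28 with array weights (beside 34.1% of all genes). It was 9 at an adjusted p below 0.01, where the share of all genes is not given here. It was 3 when a 1.5-fold change was also asked for (7.07% of all genes). With each mouse left out it was between 12 and 16 (all genes 14.3% to 25.3%). Under all other alternatives it was 14 to 19 (all genes 10.7% to 21.9%). The lower count (3) became 8 with array weights (beside 26.9% of all genes) and 5 with the GC and length trend removed (18.4%). It was 0 at an adjusted p below 0.01, again without a share of all genes, and 0 with a 1.5-fold change (5.34%). At an unadjusted p below 0.05, 26 enzymes passed in either direction in limma, beside 4940 of all 10588 genes. The lower count was between 2 and 7 with each mouse left out (all genes 10.5% to 20.2%), 7 without the shallowest library. Array weights gave that library 0.0843 and called 36 enzymes, and 3611 genes higher and 2844 lower in all. The median stayed between 0.07 and 0.20, and 6 to 9 pairs did not overlap. Of 19 called enzymes, 13 kept their call in all 8 fits that left out a mouse.
Signs turned only for enzymes and ratios that were not called in the main test. With the GC and length trend removed, values were -0.042 for Kat2a, 0.0050 for Hdac9, -0.17 for Hdac7, -0.028 for Crebbp, -0.19 for Ehmt2 (adjusted p = 0.0486), -0.058 for Suv420h2, -0.047 for Sirt7, 0.029 for Kdm4a over Kdm4b and -0.17 for Hdac7 over Hdac9. Array weights gave -0.0085 for Hdac7, -0.079 for Ehmt2, 0.11 for Kdm3a, -0.093 for Suv420h2 and 0.034 for Myst1. Quantile normalization gave -0.021 for Ehmt2 and voom -0.0075 for Suv420h2. The Xist covariate gave 0.038 for Hdac9, -0.037 for Hdac7 and -0.018 for Ehmt2. With each mouse left out in turn, the range was -0.081 to 0.071 for Hdac9, -0.069 to 0.24 for Setd3, -0.069 to 0.11 for Hdac7, -0.12 to 0.074 for Ehmt2, -0.079 to 0.057 for Kdm3a, -0.16 to 0.22 for Suv420h2, -0.31 to 0.0042 for Kdm6a, -0.095 to 0.029 for Kdm4a over Kdm4b, -0.14 to 0.19 for Hdac7 over Hdac9 and -0.36 to 0.096 for Suv420h1 over Suv420h2. The cause was not tested.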
